A study of Bos taurus with 15 samples.

Results

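Collagen chain genes were taken as the genes whose symbol is COL, a number, A and a number, which gave 21 of the 13896 genes measured in subcutaneous adipose tissue of the dewlap of primiparous Prim Holstein cows. By class, 8 of them were fibrillar (COL1A1, COL1A2, COL2A1, COL3A1, COL5A3, COL11A1, COL11A2 and COL27A1), 2 were basement membrane chains (COL4A1 and COL4A3), 1 was fibril-associated (COL12A1) and 10 were others. The 15 libraries formed 5 groups of 3: 4 weeks before calving (-4 wkpp), before any diet was given, and 1 and 16 weeks after calving (wkpp) on a low energy (LE) or a high energy (HE) diet fed since the month before calving. The study describes its cows by severe or moderate negative energy balance at 1 wkpp, while the labels give only the diet. No label ties a library to a cow, so the same cow may stand behind several libraries. P-values therefore measure the spread between these libraries. The counts of single libraries were back-calculated from the deposited means, which fixes the group of each library but not its sample, and libraries are listed within a group from the largest to the smallest size factor. Each gene has an exon value and a whole gene value, the latter with its introns.

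Collagens are proteins of the extracellular matrix built from helical chains that assemble in the endoplasmic reticulum and are secreted. Fibrillar collagens, led by types I and III, form the fibres that give connective tissue its strength, while types IV, XV and XVIII belong to basement membranes and the zones around them, which in adipose tissue wrap each adipocyte and each capillary. Type VI forms the beaded filaments of the adipocyte surroundings, and fibril-associated chains such as type XII coat the surface of fibres.

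The HE libraries stood apart from the other libraries in their exonic counts on genes. They held 2.22 to 7.72 M exonic counts on genes, against 11.2 to 15.1 M in LE and 8.83 to 15.2 M at -4 wkpp. Synthetic spike-in RNAs took 16.8 to 60.6% of all exonic counts in HE, against 1.25 to 8.35% in LE and 3.05 to 8.39% at -4 wkpp. Counts on genes and spike-in share therefore separate HE from LE without overlap, and their part in any difference that involves HE was not tested. Total reads, as listed in the study, lay in a similar range for all libraries. The defining adipocyte gene PLIN1, which coats lipid droplets, averaged 6906 to 22496 normalized exonic counts per group. The 5 fibroblast markers measured summed to 14371 to 20870 in HE at 1 wkpp and 20123 to 33826 in HE at 16 wkpp, against 74435 to 85050 at -4 wkpp, 42424 to 65754 in LE at 1 wkpp and 84303 to 93454 in LE at 16 wkpp.

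Across the 15 libraries, COL3A1, the chain of type III collagen, had the highest mean of the collagen chain genes, followed by COL1A1 and COL1A2, the chains of type I collagen. Together these 3 genes took 7.69 to 8.11% of the exonic gene counts at -4 wkpp. They took 0.651 to 1.39% in HE at 1 wkpp and 0.626 to 1.43% in HE at 16 wkpp. In LE the libraries were uneven, with 0.952%, 4.73% and 1.13% at 1 wkpp and 2.16%, 2.27% and 11.5% at 16 wkpp. Every library at -4 wkpp was above every library of HE and of LE at 1 wkpp, whereas 1 of the 3 libraries of LE at 16 wkpp was higher still. With 3 libraries against 3, the smallest p of an exact permutation test is 0.1, which was reached for -4 wkpp against HE and against LE at 1 wkpp and for LE against HE at 16 wkpp (two-sided, adjusted p = 0.2 over 6 comparisons for each). The other 3 comparisons gave p of 0.5 to 0.8.

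**Figure D1:**
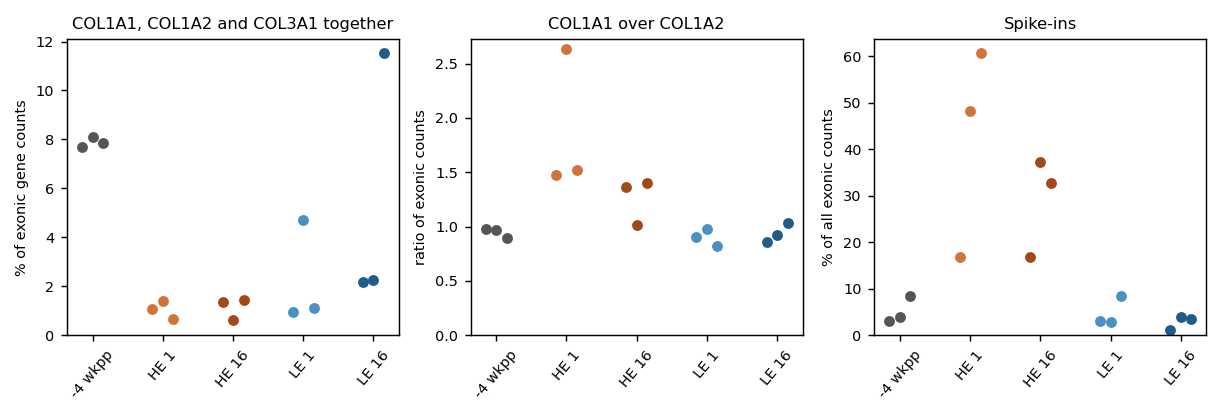
Share of exonic gene counts taken by COL1A1, COL1A2 and COL3A1 together (left, %), ratio of the exonic counts of COL1A1 to those of COL1A2 (middle) and share of all exonic counts taken by spike-in RNAs (right, %), with 1 point per library and 3 libraries per group. The libraries at -4 wkpp lie at 7.69 to 8.11% on the left, and the spike-in shares of HE, 16.8 to 60.6%, lie above those of all other libraries.

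A gene was called when its adjusted p was below 0.01 in the exon and in the whole gene analysis with the same direction (limma, 3 libraries against 3), among genes whose normalized exonic counts averaged 10 or more. COL10A1 and COL26A1 were below that mean in all 6 comparisons, and COL11A1 and COL17A1 were below it between LE and HE at 16 wkpp, so 19 genes were tested in 5 comparisons and 17 in the last. From -4 wkpp to HE at 1 wkpp, 4 of 19 were called, 1 higher and 3 lower in HE, against 2.99% of all genes tested (1.35% higher and 1.64% lower). From -4 wkpp to LE at 1 wkpp, 0 of 19 were called, against 0.0566% of all genes. Between LE and HE at 16 wkpp, 2 of 17 were called, both lower in LE, against 5.21% of all genes, with 3.65% lower in LE. Between LE and HE at 1 wkpp and from 1 to 16 wkpp in HE and in LE, limma called 0 collagen chain genes and 0% of all genes. At an unadjusted p below 0.05 in both analyses, 8 collagen chain genes passed from -4 wkpp to HE at 1 wkpp and 8 to LE at 1 wkpp, beside 26.8% and 10% of all genes. Between LE and HE 7 passed at 1 wkpp and 11 at 16 wkpp (19.7% and 26.9% of all genes), and from 1 to 16 wkpp 0 passed in HE and 2 in LE (8.52% and 4.68% of all genes). A wider threshold, an adjusted p below 0.05, gave 7, 2, 0, 0, 2 and 5 collagen chain genes for -4 wkpp to HE, -4 wkpp to LE, HE over time, LE over time, LE against HE at 1 wkpp and LE against HE at 16 wkpp, beside 12.3%, 0.952%, 0%, 0%, 2.89% and 15% of all genes. The comparisons share libraries, those at -4 wkpp and those at 1 wkpp above all, so they are not independent of each other.

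By size alone, 13 of the 19 tested collagen chain genes differed at least 2-fold in group means, in both analyses, between -4 wkpp and HE at 1 wkpp, 8 higher and 5 lower in HE, beside 19.4% of all genes (11.9% higher and 7.41% lower). Among those higher, COL2A1, COL4A3, COL11A1, COL11A2, COL13A1 and COL17A1 averaged only 10.6 to 37.8 normalized exonic counts at -4 wkpp. Before scaling, these genes had 2 to 87 exonic counts per library in HE at 1 wkpp. With a mean of at least 100, the count in this comparison was 7 of 12. For LE at 1 wkpp the count was 6 of 19, lower in LE in each case, beside 6.27% of all genes (4.39% lower). It was 12 of 19 between LE and HE at 1 wkpp (14.1% of all genes) and 10 of 17 at 16 wkpp (14% of all genes). Over time it was 5 of 19 in HE, lower at 16 wkpp in each case (5.6% of all genes, 3.79% lower), and 4 of 19 in LE, 3 higher and 1 lower at 16 wkpp (2.64% of all genes, 1.22% higher and 1.42% lower). Some of these genes had a mean below 10 in the lower group and passed the filter only through the other, so their direction was fixed by the filter. They were COL11A1 and COL17A1 between LE and HE at 1 wkpp and over time in HE, COL11A1 from -4 wkpp to LE, and COL2A1 over time in LE and between LE and HE at 16 wkpp. Without them the counts were 10, 3, 5, 3 and 9 in these comparisons, and with a mean of at least 100 the count over time in HE was 0 of 12. The count over time in LE was 0, 6 and 1 without library 1, 2 or 3 of LE at 1 wkpp, and 1 without library 3 at 16 wkpp. The exon levels of the groups compared did not overlap for 9 of 19 collagen chain genes from -4 wkpp to HE at 1 wkpp (46.9% of all genes), 7 of 19 to LE at 1 wkpp (19.8%), 2 of 19 over time in HE (20%) and in LE (12.1%), 8 of 19 between LE and HE at 1 wkpp (39.7%) and 10 of 17 at 16 wkpp (44.2%). The median log2 ratio of the tested collagen chain genes was 0.75 for HE at 1 wkpp over -4 wkpp, -0.68 for LE at 1 wkpp over -4 wkpp, -1.31 for LE over HE at 1 wkpp and -0.58 at 16 wkpp, beside medians over all genes between 0.0034 and 0.0296. From 1 to 16 wkpp it was -0.18 in HE and 0.23 in LE, beside -0.02 and -0.02 over all genes. Without the genes that had a mean below 10 in a group of the comparison, the median was -0.56 for LE at 1 wkpp over -4 wkpp, -0.99 and -0.40 for LE over HE at 1 and 16 wkpp, and -0.16 in HE and 0.36 in LE over time. The median covers opposite directions, since in the first of these comparisons the members ran from a log2 ratio of -3.60 to 3.45.

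Since 3 libraries against 3 leave few degrees of freedom, each library was left out in turn. The 6 calls kept their direction in each of the 6 fits, but none kept its threshold in all of them. From -4 wkpp to HE at 1 wkpp, COL3A1 ranged from -3.66 to -3.56 and lost its call without library 1 or 2 at -4 wkpp. COL1A2 ranged from -3.52 to -2.91 and lost it without library 2 of HE or any library at -4 wkpp. COL8A1 ranged from -3.81 to -2.94 and COL18A1 from 1.57 to 1.91, and both lost it without any library but library 1 of HE. Over all genes, that comparison had 312 calls with every library. It had 3, 2 and 13 without library 1, 2 or 3 at -4 wkpp, and 45 and 34 without library 2 or 3 of HE. Between LE and HE at 16 wkpp, COL18A1 ranged from -1.98 to -1.57 and lost its call without library 2 or 3 of HE, and COL27A1 ranged from -3.17 to -2.32 and lost it without library 1 or 3 of HE or 1 or 2 of LE. Over all genes, the calls there went from 530 to between 112 and 382 without 1 library. Lost calls were thus not particular to the collagen chain genes. Calls were also gained. Library 1 of HE at 1 wkpp had the most exonic gene counts of its group. Without it, 5 collagen chain genes were called between LE and HE at 1 wkpp, lower in LE, with 369 genes in all. They were COL5A3, COL11A2, COL13A1, COL18A1 and COL27A1. COL11A2 was then also called from -4 wkpp to HE (log2 3.99, higher in HE). Without library 2 of LE at 1 wkpp, 4 were called from -4 wkpp to LE (COL1A1, COL1A2, COL3A1 and COL27A1, lower in LE), with 161 genes in all. Without library 2 of HE at 16 wkpp, COL5A3 was called between LE and HE at that time (log2 -1.91).

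**Figure D2:**
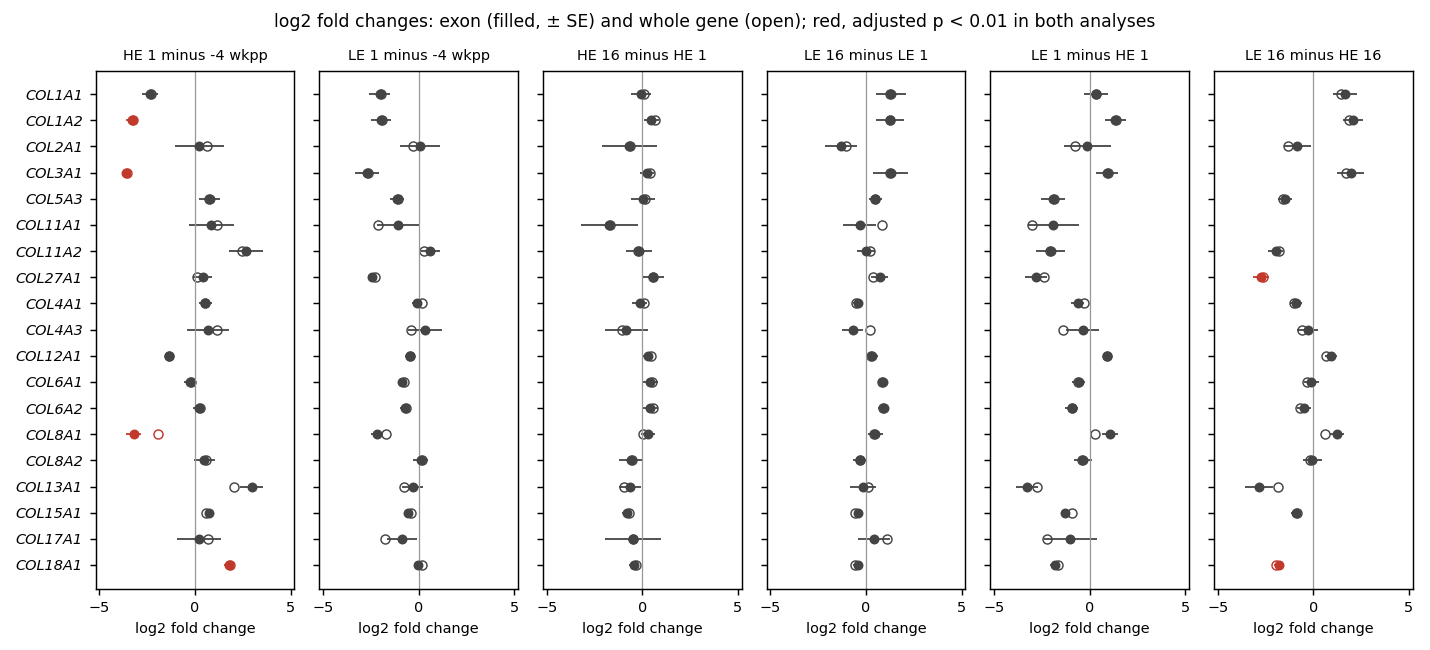
log2 fold changes (horizontal axis) of the 19 tested collagen chain genes in the 6 comparisons, from limma on 3 libraries against 3. Filled points are the exon analysis with its SE, open points the whole gene analysis, and red marks the 6 calls with an adjusted p below 0.01 in both. The type I and III genes lie left of 0 in both comparisons with -4 wkpp, and COL18A1 lies left of 0 in both comparisons of LE with HE.

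The genes of types I and III collagen, the bulk of the fibres, had their highest group means before calving. COL3A1 stood at 399, 429 and 404 k normalized exonic counts (k, units of 1000 counts) at -4 wkpp and at 34.8, 35.3 and 31.6 k in HE at 1 wkpp. The groups did not overlap, and within each group the libraries lay close together. COL3A1 fell by 3.61 ± 0.20 on the log2 scale (SE, adjusted p = 9.33e-06 for exons and 0.00119 for the whole gene). In HE at 16 wkpp it stood at 56.0, 22.3 and 51.1 k.

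In LE, COL3A1 stood at 31.6, 201 and 38.6 k at 1 wkpp and at 88.5, 69.5 and 549 k at 16 wkpp. A single library in each of these groups was several times above the other libraries of its group, and the groups overlapped over time. The change from -4 wkpp to LE at 1 wkpp, -2.72 ± 0.63 (SE), did not pass (adjusted p = 0.0769 for exons and 0.112 for the whole gene). Without the high library of LE at 1 wkpp, the second in order, the change was -3.55 and passed in both analyses. The difference between LE and HE at 16 wkpp was 1.95 ± 0.70 (SE, adjusted p = 0.0707 for exons and 0.133 for the whole gene), and 1.02 without the high library of LE at 16 wkpp, the third in order.

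COL1A2, the alpha 2 chain of type I collagen, stood at 138, 150 and 130 k at -4 wkpp and at 18.9, 18.4 and 8.50 k in HE at 1 wkpp. It fell by 3.30 ± 0.32 on the log2 scale (SE, adjusted p = 0.000155 for exons and 0.00481 for the whole gene), with no overlap between the groups. In HE at 16 wkpp it was at 19.8, 13.8 and 27.0 k, in LE at 1 wkpp at 20.5, 90.8 and 24.0 k and in LE at 16 wkpp at 43.4, 56.2 and 225 k. The libraries that were high for COL3A1 in LE were also high for COL1A2. All 3 libraries of LE at 16 wkpp were above those of HE at 16 wkpp, by 2.08 ± 0.54 on the log2 scale (SE), which did not pass in both analyses (adjusted p = 0.0236 for exons and 0.0511 for the whole gene). Without library 3 of LE at 16 wkpp it was 1.35.

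COL1A1, the alpha 1 chain of type I collagen, stood at 135, 146 and 116 k at -4 wkpp and at 27.9, 48.4 and 13.0 k in HE at 1 wkpp. The groups did not overlap, but the libraries of HE spread over a wider range than for COL3A1. The change was -2.36 ± 0.41 (SE) and passed in the exon analysis alone (adjusted p = 0.00235 for exons and 0.0282 for the whole gene). In LE, COL1A1 was at 18.6, 89.1 and 19.6 k at 1 wkpp and 37.5, 51.7 and 233 k at 16 wkpp.

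The ratio of COL1A1 to COL1A2 counts, whose protein products assemble into the same molecule, was looked at after the values were seen. It was 0.975, 0.968 and 0.892 at -4 wkpp, 0.906, 0.981 and 0.819 in LE at 1 wkpp and 0.863, 0.920 and 1.04 in LE at 16 wkpp. In HE it was 1.47, 2.63 and 1.53 at 1 wkpp and 1.36, 1.01 and 1.40 at 16 wkpp. All libraries of HE at 1 wkpp were above all libraries at -4 wkpp and in LE. The exact permutation test gave p = 0.1 for HE at 1 wkpp against -4 wkpp, against LE and against HE at 16 wkpp (two-sided, adjusted p = 0.2 over 6 comparisons), the smallest p for 3 libraries against 3, and p = 0.2 for LE against HE at 16 wkpp. The ratio of COL6A1 to COL6A2 was 1.53 to 2.09 at -4 wkpp, 1.11 to 1.41 in HE at 1 wkpp, 1.18 to 1.304 in HE at 16 wkpp, 1.47 to 2.01 in LE at 1 wkpp and 1.54 to 1.71 in LE at 16 wkpp. It was lower in HE, without overlap, against -4 wkpp at 1 wkpp and against LE at both times (exact permutation test, two-sided p = 0.1, adjusted p = 0.2 over 6 comparisons for each).

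**Figure D3:**
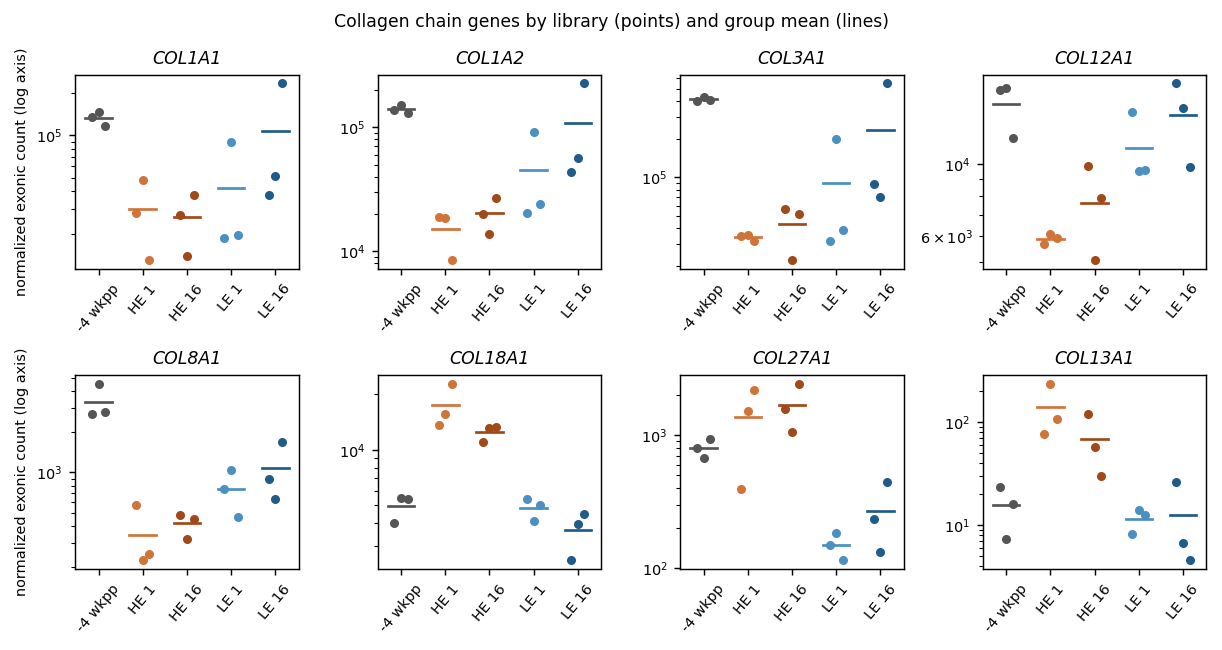
Normalized exonic counts (log axis) of 8 collagen chain genes, with 1 point per library, 3 libraries per group and lines at the group means. COL1A1, COL1A2, COL3A1 and COL8A1 have their libraries at -4 wkpp above those of HE at 1 wkpp, and COL18A1 and COL13A1 have those of HE above those of LE.

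Among the minor fibrillar chains, which are found inside or beside the main fibres, the order of the groups was different. COL27A1, a fibrillar chain best known from cartilage, stood at 802, 672 and 934 normalized exonic counts at -4 wkpp and at 150, 183 and 114 in LE at 1 wkpp. The groups did not overlap, and the change was -2.43 ± 0.23 (SE, adjusted p = 0.00396 for exons and 0.0122 for the whole gene), which passed in the exon analysis alone. In HE, COL27A1 stood at 392.1, 1529 and 2173 at 1 wkpp and at 1582, 1064 and 2437 at 16 wkpp. In LE at 16 wkpp it was at 234, 132 and 443, below every HE library of that time. That difference was -2.74 ± 0.43 on the log2 scale and was called (adjusted p = 0.00298 for exons and 0.00573 for the whole gene). At 1 wkpp LE was also below HE in every library, by -2.82 ± 0.56 (SE), and did not pass (adjusted p = 0.0144 for exons and 0.0692 for the whole gene).

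COL5A3, a chain of type V collagen, which sits within type I fibres, was at 5496, 8979 and 9758 at -4 wkpp. It was at 4396, 17862 and 29234 in HE at 1 wkpp and at 21192, 8033 and 17245 in HE at 16 wkpp. In LE it was lower, at 2502, 6265 and 2990 at 1 wkpp and at 5615, 3732 and 5961 at 16 wkpp. The libraries of LE and HE overlapped at 1 wkpp and did not overlap at 16 wkpp, where the difference was -1.47 ± 0.36 (SE, adjusted p = 0.0197 for exons and 0.0137 for the whole gene).

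COL11A2, a chain of type XI collagen, was at 5.75, 12.8 and 13.1 at -4 wkpp, at 28.2, 168 and 151 in HE at 1 wkpp and at 54.8, 48.8 and 78.5 in HE at 16 wkpp. In LE it was at 18.4, 14.5 and 11.8 at 1 wkpp and at 10.4, 13.5 and 23.9 at 16 wkpp, below all HE libraries. At 16 wkpp the difference of LE from HE was -1.98 ± 0.41 (SE), which passed for exons and not for the whole gene (adjusted p = 0.0097 and 0.0138). COL2A1 and COL11A1, the main chains of cartilage fibres, were low, with group means of 6.26 to 86.6 and 5.04 to 79.0. Their highest values, 232 and 178, came from the same library of HE at 1 wkpp. Without it, the count of collagen chain genes past 2-fold from 1 to 16 wkpp in HE went from 5 to 3 of the same 19 genes. Of the cartilage markers, ACAN, a large proteoglycan of cartilage, reached 205 in 1 library at -4 wkpp, and MATN1, a matrix protein of cartilage, reached 12.9 at most.

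The basement membrane chain COL4A1, which forms the network around adipocytes and vessels, was among the most abundant members. It stood at 15.8, 24.1 and 21.5 k at -4 wkpp, at 49.3, 23.5 and 23.2 k in HE at 1 wkpp and at 43.6, 22.1 and 20.2 k in HE at 16 wkpp. In LE it was at 15.0, 22.1 and 20.1 k at 1 wkpp and at 12.9, 11.3 and 17.4 k at 16 wkpp. LE and HE did not overlap at either time, but the differences of LE from HE did not pass, with -0.63 ± 0.33 at 1 wkpp (SE, adjusted p = 0.224 for exons and 0.663 for the whole gene) and -0.91 ± 0.32 at 16 wkpp (SE, adjusted p = 0.0701 and 0.0246). Without library 1 of HE at 1 wkpp, the highest of the 15, the difference at 1 wkpp was -0.27. COL4A3, a chain best known from the basement membranes of kidney and lung, had group means of 18.6 to 95.2, and 22.7% of its whole gene counts lay on exons.

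COL18A1 encodes the type XVIII chain, a basement membrane proteoglycan whose end fragment is endostatin, and from -4 wkpp to HE at 1 wkpp it changed in the direction opposite to COL1A2 and COL3A1. It stood at 4006, 5440 and 5402 at -4 wkpp and at 13679, 15646 and 22844 in HE at 1 wkpp. It was higher in HE by 1.79 ± 0.24 on the log2 scale (SE, adjusted p = 0.000712 for exons and 0.00529 for the whole gene), without overlap. In HE at 16 wkpp it stayed between 10970 and 13345, whereas in LE it was at 5366, 4122 and 5027 at 1 wkpp and at 2501, 3972 and 4467 at 16 wkpp. All libraries of LE were below all libraries of HE. The difference of LE from HE at 16 wkpp, -1.81 ± 0.25 (SE), was called (adjusted p = 0.00159 for exons and 0.00288 for the whole gene). The one at 1 wkpp, also -1.81 ± 0.24 (SE), passed for exons and not for the whole gene (adjusted p = 0.00748 and 0.0286).

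COL15A1, the related type XV chain, was at 8220, 7520 and 9013 at -4 wkpp and at 14705, 11111 and 15845 in HE at 1 wkpp. It was at 10022, 5840 and 8517 in HE at 16 wkpp, at 4918, 5316 and 6572 in LE at 1 wkpp and at 3479, 3864 and 5370 in LE at 16 wkpp. LE and HE did not overlap at either time. The difference of LE from HE was -1.28 ± 0.23 (SE) at 1 wkpp, with an adjusted p of 0.0108 for exons and 0.107 for the whole gene, and -0.89 ± 0.26 (SE) at 16 wkpp, with 0.036 and 0.0339. The 4 endothelial markers summed to 18092 to 22143 at -4 wkpp, to 28416 to 60372 in HE and 27892 to 34773 in LE at 1 wkpp, and to 22650 to 32753 in HE and 21029 to 24060 in LE at 16 wkpp. From -4 wkpp to HE and to LE at 1 wkpp, all 4 had a log2 ratio above 0 and their sums did not overlap, with a median log2 ratio of 0.69 in HE and 0.68 in LE. COL18A1 was called higher in HE and had a log2 ratio of -0.03 in LE (adjusted p = 0.961 for exons and 0.832 for the whole gene). The von Willebrand factor gene VWF passed to HE in the exon analysis alone (log2 1.38, adjusted p = 0.00594 for exons and 0.0308 for the whole gene). The part of the endothelial markers in the results on COL18A1 and COL15A1 was not tested.

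COL12A1, the fibril-associated chain of type XII, passed from -4 wkpp to HE at 1 wkpp in the exon analysis alone. It stood at 16.9, 17.0 and 12.0 k at -4 wkpp and at 5.67, 6.08 and 5.92 k in HE at 1 wkpp. The groups did not overlap, and the change was -1.37 ± 0.21 (SE, adjusted p = 0.00139 for exons and 0.0144 for the whole gene). In LE it was at 14.4, 9.54 and 9.60 k at 1 wkpp and at 17.6, 14.8 and 9.79 k at 16 wkpp. In HE at 16 wkpp it was at 9.89, 5.07 and 7.87 k.

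COL8A1, a short-chain collagen made by vessel wall cells, was at 2687, 4504 and 2776 at -4 wkpp and at 571, 224 and 250 in HE at 1 wkpp. It fell by 3.21 ± 0.38 on the log2 scale for exons (SE, adjusted p = 0.000383) and by 1.94 for the whole gene (adjusted p = 0.00525). The whole gene change was smaller, and exons held 52.3 to 74.2% of its whole gene counts at -4 wkpp against 18.8 to 38.0% in HE at 1 wkpp. In LE at 1 wkpp COL8A1 was at 761, 1049 and 471, also below every library at -4 wkpp, with a change of -2.16 ± 0.31 (SE, adjusted p = 0.0142 for exons and 0.0447 for the whole gene). In HE at 16 wkpp it was at 484, 324 and 455, and in LE at 16 wkpp at 900, 640 and 1682. Its partner COL8A2 was low, with group means of 37.5 to 56.6, and single libraries ran from 22.1 to 80.3 in HE at 1 wkpp and from 13.5 to 65.6 in HE at 16 wkpp.

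The type VI chains COL6A1 and COL6A2 passed in no comparison. COL6A1 was at 27.1, 26.1 and 26.8 k at -4 wkpp, at 14.5, 22.0 and 33.5 k in HE at 1 wkpp and at 15.2, 20.02 and 10.7 k in LE at 1 wkpp. At 16 wkpp it was at 30.2, 17.3 and 47.6 k in HE and at 21.4, 28.0 and 32.0 k in LE. COL6A2 was at 13.0, 17.0 and 14.7 k at -4 wkpp, at 10.2, 19.8 and 25.3 k in HE at 1 wkpp and at 7.57, 13.1 and 7.26 k in LE at 1 wkpp. At 16 wkpp it was at 24.8, 14.6 and 36.5 k in HE and at 13.9, 16.3 and 20.5 k in LE. From 1 to 16 wkpp in LE the libraries of COL6A1 and of COL6A2 did not overlap, with changes of 0.88 ± 0.27 and 0.92 ± 0.27 (SE, adjusted p = 0.683 for both in the exon analysis). Of the tested collagen chain genes, 2 had no overlap in that comparison, beside 12.1% of all genes.

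COL13A1, a transmembrane collagen of cell adhesion sites, was low, and was called in no comparison. It was at 23.6, 7.33 and 15.9 at -4 wkpp, at 76.1, 235 and 107 in HE at 1 wkpp and at 8.11, 14.0 and 12.4 in LE at 1 wkpp. HE lay above both other groups without overlap, by 2.96 ± 0.61 over -4 wkpp (SE, adjusted p = 0.00522 for exons and 0.0277 for the whole gene). LE was below HE by -3.28 ± 0.59 at 1 wkpp (SE, adjusted p = 0.0114 for exons and 0.0322 for the whole gene). At 16 wkpp HE was at 118, 56.6 and 29.8 and LE at 26.0, 6.73 and 4.52. Exons held 6.97 to 38.0% of its whole gene counts over the 15 libraries, so most of its whole gene signal came from outside exons.

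The remaining members were near the limit of detection. COL17A1, a transmembrane collagen of epithelial attachment, had group means of 6.32 to 43.8, the highest in HE at 1 wkpp. Its values there, 2.09, 59.4 and 69.8, came with 41.9% of exonic counts on spike-ins on average, and the 5 skin and hair keratinocyte markers summed to 6.26 to 268 in the same group and 172 to 610 at -4 wkpp. COL10A1, the collagen of growth plate cartilage, had 22 exonic counts over all libraries. COL26A1 had 16 exonic counts against 1063 whole gene counts, so 1.5% lay on exons, and its whole gene mean was 435 in HE at 1 wkpp and 4.24 in LE at 1 wkpp.

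Of 40 listed genes for collagen hydroxylation and folding, propeptide cleavage, cross-linking and degradation, 35 were measured. From -4 wkpp to HE at 1 wkpp, 0 of the 31 tested were higher and 5 were lower in HE, beside 1.35% and 1.64% of all genes. SERPINH1, the collagen chaperone HSP47, was at 5495, 6381 and 4508 at -4 wkpp and at 1424, 1054 and 1217 in HE, a change of -2.15 ± 0.23 (SE, adjusted p = 0.000212 for exons and 0.00755 for the whole gene). LOX, the oxidase that starts the cross-links between collagen molecules, was at 2751, 1938 and 2453 at -4 wkpp and at 468, 397 and 393 in HE, a change of -2.48 ± 0.23 (SE, adjusted p = 0.000121 and 0.00292). The other 3 were ADAMTS2, the protease that removes the N-terminal propeptide (log2 -2.53), and PCOLCE and PCOLCE2, which enhance removal of the C-terminal one (log2 -1.94 and -2.66).

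From -4 wkpp to LE at 1 wkpp, 0 of 32 of these genes were called. LOX was at 2905, 1807 and 2219 there, overlapping the range at -4 wkpp (adjusted p = 0.937 for exons and 0.936 for the whole gene). SERPINH1 was at 1655, 3780 and 1490, with a change of -1.36 ± 0.34 (SE, adjusted p = 0.0957). Between LE and HE at 16 wkpp, 4 of 31 were higher in LE, namely LOX (log2 2.22), the gelatinase MMP2 (2.09), the membrane protease MMP14 (1.78) and the lysosomal collagenase CTSK (1.86), and 1 was lower, P3H2, a prolyl 3-hydroxylase (-1.19), beside 1.56% of all genes higher and 3.65% lower. Between LE and HE at 1 wkpp 0 of 32 were called, and over time 0 of 31 in HE and 0 of 32 in LE. P4HA1 and PLOD2, which hydroxylate proline and lysine, were called in no comparison. P4HA1 had an exon change of -1.56 and PLOD2 one of -1.11 from -4 wkpp to HE at 1 wkpp (adjusted p = 0.00793 and 0.0194 for exons, and 0.107 and 0.0277 for the whole gene).

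Markers of other cell types moved in some of the same comparisons. Of the 5 fibroblast markers, which mark the cells that make most fibrillar collagen, 4 were lower in HE at 1 wkpp than at -4 wkpp and 0 higher, and 2 were higher in LE than in HE at 16 wkpp. The shares of all genes were 1.64% lower and 1.35% higher in the first comparison and 1.56% higher in the second. DCN, a small proteoglycan that binds collagen fibres, was at 51055, 45501 and 46526 at -4 wkpp and at 3933, 8861 and 8599 in HE at 1 wkpp. Of the 5 adipocyte markers, 2 were lower in HE at 1 wkpp than at -4 wkpp (1.64% of all genes). The adipocyte markers summed to 44012 to 54021 at -4 wkpp, 18403 to 55434 in HE at 1 wkpp, 9194 to 38894 in HE at 16 wkpp, 71114 to 86704 in LE at 1 wkpp and 41085 to 47587 in LE at 16 wkpp. In such bulk samples, fewer cells of a type and less RNA per cell cannot be told apart, and the part of these markers in the collagen results was not tested.

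Of the 4 skeletal muscle markers measured, TNNT3 was lower in LE than in HE at 16 wkpp (log2 -3.28, beside 3.65% of all genes lower), and the list summed to 82 to 352 at -4 wkpp, 1172 to 3996 in HE at 1 wkpp, 1685 to 3789 in HE at 16 wkpp, 106 to 302 in LE at 1 wkpp and 226 to 337 in LE at 16 wkpp. ACTA1 and CKM, which define that tissue, reached 94.6 and 4.89 at most. Of the 4 macrophage markers, 2 were higher in LE than in HE at 16 wkpp (1.56% of all genes), CD163 (log2 3.30) and CSF1R (1.97). The list summed to 1909 to 2204 in HE and 10309 to 13490 in LE at 16 wkpp, to 1959 to 6859 in HE and 7462 to 11392 in LE at 1 wkpp and to 4844 to 6901 at -4 wkpp. The 4 smooth muscle and pericyte markers summed to 16403 to 53257 in HE and 3375 to 12597 in LE at 16 wkpp, without overlap. All 4 had a log2 ratio below 0 for LE against HE at that time. The contractile gene MYH11 stood at -2.21 (adjusted p = 0.0192 for exons and 0.00902 for the whole gene). The sum overlapped between the diets at 1 wkpp, with 10099 to 19049 in HE and 6865 to 13009 in LE. It was 7631 to 40891 at -4 wkpp. The part of these markers in the collagen results was not tested. Over the 5 groups, single libraries ran from 165 to 6412 for the Schwann cell list and from 14.5 to 338 for the erythrocyte list. Of these 3 lists no member was called by limma in any comparison. The keratins KRT14, KRT31 and KRT85 were at 0 in all libraries of LE at 1 wkpp, and the globin HBA was at 0 in all libraries of HE and of LE at 1 wkpp.

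Whether LE and HE differed in their change from 1 to 16 wkpp was tested in a fit of all 15 libraries. For 0 of 19 collagen chain genes did the changes differ, and for 0% of all genes tested, at an adjusted p below 0.01 and below 0.05 in both analyses. The differences of the changes of COL1A1 and COL3A1, LE minus HE, were 1.35 ± 0.96 and 1.04 ± 0.95 on the log2 scale (SE).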

How the data were processed

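RNA of dewlap subcutaneous adipose tissue was sequenced by the authors from ribosomal RNA depleted, stranded libraries. Reads were trimmed with Cutadapt 1.3, aligned with TopHat2 to bosTau8 and counted per gene with htseq-count, on exons and on the whole gene, and compared with DESeq2 (versions and builds as named in the submitters' processing notes). The 6 deposited tables, 1 per comparison, hold for each analysis the authors' mean over 6 libraries of counts divided by DESeq2 size factors. Their fold changes, standard errors, scores, p-values and adjusted p-values were not used. The tables had 0 columns of samples outside the series.

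The counts of the 15 libraries were back-calculated from the 6 deposited means, which are written to about 15 digits. Size factors came from genes with a single read, and whole-number counts were then solved for each gene by lattice reduction. Counts were found for all 13988 entries of both analyses, with a largest relative misfit of 5.1e-15, and size factors recomputed from them differed from those solved by at most 1.4e-13 percent. In a simulation, 500 of 500 genes came back exactly. The 92 spike-in entries were left out of the gene results. Libraries of a group were matched between analyses by keeping the genes with more exonic than whole gene counts fewest.

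The plan made before the tables were opened had no test, as it assumed that a group has 1 value. The test was added once counts could be recovered. It was settled after fits with and without library quality weights, at thresholds of 0.05 and 0.01, had been run and their calls seen, and the unweighted fit was kept with the study's threshold, an adjusted p below 0.01 in both analyses. The study's methods do not bear on the choice to leave out the weights. The other counts of calls are printed with the alternatives. Collagen chain genes and gene lists were chosen with earlier results of these data known. Levels are counts over size factors (median of ratios over 15 libraries). Differences were fitted with limma 3.58.1 (voom, R 4.3.3) for each comparison of 6 libraries, with adjustment by Benjamini-Hochberg over all genes with a mean of at least 10. In simulations, 48% of 50 genes changed 2-fold and 96% of 50 changed 4-fold were found from -4 wkpp to HE at 1 wkpp. There were 2 false calls among the 10523 genes that entered both simulated analyses. For LE against HE at 16 wkpp 86% and 96% were found, with 1 false call among 10266. Each simulation gave all genes the same spread between libraries, the median dispersion of genes with a mean above 100 (0.0408 and 0.0256). The shares found therefore do not hold for genes with a wider spread. COL1A1 in HE at 1 wkpp, for example, had an SD of 17.8 k around a mean of 29.7 k. Alternatives were other folds, filters, scalings, weights, thresholds, a joint fit and leaving out each library. Every collagen chain gene was named. Values per library were given for those that led their class (up to 4) or passed 2-fold, and ranges or counts for the rest (COL8A2, COL10A1 and COL26A1) and for the lowest of the others. Pathway genes were named when called, with SERPINH1, P4HA1, PLOD2, LOX and PCOLCE in any case; BMP1 was not analysed here. All 21 symbols are in RefSeq (ARS-UCD2.0), which has 44 such symbols, and 23 were not analysed here.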

Additional observations from a re-analysis of the deposited data

Results flagged for a closer look

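The spike-in RNAs lie outside the gene counts that the comparisons used, and their share of exonic counts was higher in every HE library than in any library at -4 wkpp. The lowest HE library had 16.829% at 1 wkpp and 16.824% at 16 wkpp, against at most 8.39% at -4 wkpp. Its part in the collagen results was not tested. In groups of 3 libraries no single library was tested for standing apart from the others.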

How the results depend on the processing

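For the change from -4 wkpp to HE at 1 wkpp, -4 wkpp to LE, LE against HE at 1 wkpp and LE against HE at 16 wkpp, the counts of collagen chain genes called were 4, 0, 0 and 2, and those of all genes 312, 6, 0 and 530. Exons alone gave 7, 1, 1 and 3 collagen chain genes and 1742, 53, 209 and 1059 genes. An adjusted p below 0.05 gave 7, 2, 2 and 5, and 1282, 101, 300 and 1526. Library quality weights gave 8, 5, 5 and 3, and 1685, 333, 691 and 719, and with an adjusted p below 0.05 they gave 9, 8, 8 and 6, and 3064, 928, 1921 and 1707. The joint fit of 15 libraries gave 5, 1, 2 and 2, and 1182, 36, 394 and 551. No filter gave 1, 0, 0 and 1, and 78, 4, 0 and 272, and a mean of at least 100 gave 6, 1, 0 and 2, and 772, 27, 27 and 624. Scaling to total counts gave 4, 0, 0 and 2, and 522, 4, 0 and 582. Whole genes alone gave 4, 0, 0 and 2, and 330, 6, 0 and 609. From 1 to 16 wkpp each of these settings gave 0 in HE and in LE, for collagen chain genes and for all genes. The weights and the threshold of 0.05 give more calls than the setting reported, and all settings beyond those for folds and medians were chosen after seeing the data.

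Leaving out each library gave 0 to 5, 0 to 4, 0 to 5 and 0 to 2 collagen chain genes and 2 to 300, 0 to 161, 0 to 369 and 112 to 382 genes, and 0 over time. Counts past the fold went, when each library was left out, from 9 to 13, 5 to 9, 3 to 6 (HE over time), 0 to 6 (LE over time), 11 to 12 and 9 to 11. The count of 0 over time in LE came without library 1 of LE at 1 wkpp. A mean of at least 100 left 12 collagen chain genes and gave 7 for HE at 1 wkpp over -4 wkpp, 6 for LE against HE at 1 wkpp and 0 for HE over time. For LE at 1 wkpp over -4 wkpp, 1.5-fold gave 10 and 3-fold gave 3, and 3-fold gave 0 for LE over time. The shares of all genes past the fold were not counted under these settings, and the cause of these moves was not tested. The median log2 ratios kept their sign under all settings tried. They moved by less than 1 SD of the difference between single libraries of the groups, a wide yardstick not scaled to means of 3 libraries. Leaving out single libraries still moved 4 of the 6 by over 1.5 times. That for HE at 1 wkpp over -4 wkpp went from 0.75 to 0.38 without library 2 of HE, and that for LE over HE at 16 wkpp from -0.58 to -0.22 without library 3 of HE. That for HE over time, -0.18, was -0.44 and -0.0048 without library 1 or 2 at 16 wkpp and -0.12 and -0.35 without library 2 or 3 at 1 wkpp, and -0.02 with whole gene counts. That for LE over time, 0.23, was 0.14, 0.41 and 0.02 without library 1, 2 or 3 at 16 wkpp and 0.38 without library 1 at 1 wkpp. No member with a call reversed under these settings. Of 105 levels per gene and group, 52 moved by over 1 SD with whole gene counts in place of exonic ones. The alternative ways of solving group levels (1 table left out, other scale, non-negative least squares) were not run, since the counts gave the levels directly.

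No paired analysis was possible because the back-calculated libraries carry no replicate number or cow. Precision rests on 3 libraries per group and, in HE, on 2.22 to 7.72 M exonic counts. In LE, 1 library set much of the mean of types I and III at each time.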
